A study of Mus musculus with 4 samples.

Results

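The 9 genes examined mark the vascular endothelium: Vwf, Pecam1, Cdh5, Kdr, Egfl7, Cd93, Plvap, Emcn and Cd34. They were taken by symbol as 9 of the 32287 features in the count tables and all 9 were found. Their RNA was measured in popliteal lymph nodes (PLNs), the nodes that drain the hind paw, of male C57BL/6 mice with Visium. In this assay a tissue section lies on a grid of barcoded spots and every captured RNA molecule is counted through its unique molecular identifier (UMI). The WT capture area held 10 PLNs of 5 wild-type mice at 5.5 months. The Early area held 6 PLNs of 3 TNF-Tg mice at 5.5 months with early arthritis. Advanced 1 and Advanced 2 each held 6 PLNs of 3 TNF-Tg mice at 8.5 to 9 months with advanced arthritis. The TNF-Tg mice carry a human TNF transgene and develop inflammatory-erosive arthritis, and Evan's blue dye had been given into the hind paws of all mice to find the nodes. No WT nodes of the older age were among the samples, so for Advanced against WT genotype and age cannot be told apart. For Advanced against Early, stage of arthritis and age cannot be told apart either. Mice were pooled on each area, spots carried no label of node or mouse, and WT and Early had 1 area each, so a test against either assumes that the lone area varies like the 2 Advanced areas.

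Blood vessels are lined by endothelial cells that hold to each other through junction proteins, sense growth factors and blood flow, and display ligands for platelets and leukocytes. In a lymph node, arteries enter and veins leave at the hilum, capillaries run through the parenchyma and high endothelial venules admit lymphocytes from the blood, while lymph flows in separate sinuses lined by lymphatic endothelium. Larger vessels are wrapped in smooth muscle and commonly lie in connective tissue or fat. Several of the 9 genes are not private to blood vessels: Pecam1, Cdh5, Kdr, Egfl7 and Plvap are also made by lymphatic endothelium, Pecam1 and Cd93 by myeloid cells, Cd34 by fibroblasts of the vessel wall and capsule, and Vwf by megakaryocytes. Cd93 was also among the marker genes of plasma cells in the authors' single-cell data of TNF-Tg nodes.

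Vwf (ENSMUSG00000001930, chromosome 6 from 125546774 to 125686679 of GRCm38, plus strand) encodes von Willebrand factor, the large glycoprotein that tethers platelets to injured vessel wall and carries factor VIII. Cdh5 (ENSMUSG00000031871, chromosome 8 from 104101625 to 104144511, plus strand) encodes VE-cadherin of the adherens junction, and Pecam1 (ENSMUSG00000020717, chromosome 11 from 106654217 to 106750628, minus strand) encodes CD31, an adhesion molecule of the cell border. Kdr (ENSMUSG00000062960, chromosome 5 from 75932827 to 75978458, minus strand) encodes the main signalling receptor for VEGF-A. Egfl7 (ENSMUSG00000026921, chromosome 2 from 26580014 to 26593120, plus strand) encodes a secreted protein of growing vessels, and Cd93 (ENSMUSG00000027435, chromosome 2 from 148436640 to 148443563, minus strand) a C-type lectin-like receptor that takes part in vessel growth. Plvap (ENSMUSG00000034845, chromosome 8 from 71497765 to 71511752, minus strand) forms the diaphragms of fenestrae and caveolae. Emcn (ENSMUSG00000054690, chromosome 3 from 137341067 to 137432185, plus strand) and Cd34 (ENSMUSG00000016494, chromosome 1 from 194938819 to 194961279, plus strand) encode sialomucins of the luminal surface, and Cd34 when suitably glycosylated is a ligand for L-selectin.

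Endothelial genes are known to be driven by ETS family transcription factors, which bind sites with a GGAA core, so the windows before the transcription starts were read for AGGAAG on both strands. RefSeq windows of 250 bases (GRCm38.p6) were at hand for 4 of the 9 genes, Kdr, Emcn, Cd34 and Egfl7, with 6 windows in all because Egfl7 has 3 starts. AGGAAG or its reverse complement stood in 4 of the 6 windows, against 29.5% of the 32851 windows of all genes. The Kdr window (chr5:75978456-75978705, minus strand), the Emcn window (chr3:137340828-137341077, plus strand) and the Cd34 window (chr1:194938571-194938820, plus strand) are printed 5′ to 3′, with the motif in capitals, because they differ in the number of matches: 0 for Kdr, 2 for Emcn and 1 for Cd34. Other forms of the GGAA core were not counted, and the Kdr window holds GGAA and its reverse complement TTCC outside AGGAAG. The 0 for Kdr therefore does not mean that its window lacks GGAA cores. A match describes letters and is not a measured binding site.
Kdr: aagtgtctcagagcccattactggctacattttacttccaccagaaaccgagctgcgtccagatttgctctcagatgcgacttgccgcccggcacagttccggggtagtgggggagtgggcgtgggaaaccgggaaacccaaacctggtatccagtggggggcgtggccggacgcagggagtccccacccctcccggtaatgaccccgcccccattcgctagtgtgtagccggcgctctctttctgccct
Emcn: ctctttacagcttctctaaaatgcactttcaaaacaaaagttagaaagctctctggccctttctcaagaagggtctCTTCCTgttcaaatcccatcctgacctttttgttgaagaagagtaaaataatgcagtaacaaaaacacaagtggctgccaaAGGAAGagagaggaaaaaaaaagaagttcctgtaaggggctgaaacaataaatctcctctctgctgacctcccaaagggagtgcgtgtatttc
Cd34: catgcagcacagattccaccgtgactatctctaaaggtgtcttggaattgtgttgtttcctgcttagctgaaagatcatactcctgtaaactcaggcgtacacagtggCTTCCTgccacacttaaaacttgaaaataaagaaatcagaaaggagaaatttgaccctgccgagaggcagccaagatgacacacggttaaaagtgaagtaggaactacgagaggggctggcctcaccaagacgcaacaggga

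Known B cell genes (8 of 8) and T cell genes (9 of 9) had UMIs on every area. The 4 areas held 833 to 2015 spots and 1808678 to 5180493 UMIs, the Early area being the deepest. Spots at the rim of the tissue, with fewer than 6 of their 6 neighbours under tissue, had a median of 2113 to 5541 UMIs, and interior spots a median of 140.5 to 250.5. Levels are therefore given as UMIs of a gene per 10000 UMIs of all genes, summed over the spots of an area, with exact Poisson 95% intervals that cover counting error only. In such sums fewer cells of a type and less RNA per cell cannot be told apart. Levels of different genes are not ranked against each other, since the 3′ capture was not scaled to transcript length.

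Vwf was the gene whose level differed most between areas. It stood at 0.393 per 10000 on the WT area (interval 0.307 to 0.495, 71 UMIs), 0.135 on the Early area (0.105 to 0.171, 70 UMIs), 0.403 on Advanced 1 (0.338 to 0.476, 136 UMIs) and 0.628 on Advanced 2 (0.545 to 0.722, 201 UMIs). The Early interval lay below the other 3, those of WT and Advanced 1 overlapped, and that of Advanced 2 lay above all others. The order from low to high was thus Early, then WT and Advanced 1, which did not differ beyond counting error, then Advanced 2.

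Cd93 and Egfl7 were lowest on the Early area as well. Cd93 stood at 0.547 per 10000 on the WT area, 0.303 on Early, 0.675 on Advanced 1 and 0.700 on Advanced 2. The intervals of WT and both Advanced areas overlapped, and Early lay below all 3. Egfl7 stood at 3.32, 2.52, 3.69 and 4.24 per 10000 in the same order of areas, with Advanced 2 above Advanced 1 beyond counting error and WT overlapping Advanced 1. Cd34 had another order, with Early at 0.330, WT at 0.343 and Advanced 2 at 0.435 overlapping and Advanced 1 above them at 0.633.

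Plvap, the fenestral diaphragm gene, was also lowest on Early, at 5.06 per 10000 against 5.90 on WT, 6.39 on Advanced 1 and 5.65 on Advanced 2, with the Early interval clear of the other 3. Emcn, with 40 to 82 UMIs per area, stood at 0.221, 0.137, 0.243 and 0.184 in the order WT, Early, Advanced 1 and Advanced 2, and its Early interval was clear of that of Advanced 1.

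Pecam1 stood at 2.59 per 10000 on WT, 2.48 on Early, 2.94 on Advanced 1 and 3.04 on Advanced 2. Cdh5 stood at 1.18, 1.40, 1.53 and 1.60, the only gene of the 9 that was lowest on the WT area. Kdr stood at 1.04, 0.938, 0.941 and 1.14, with each interval overlapping its neighbour's in the order of levels. Summed, the 9 genes took 15.5, 13.3, 17.4 and 17.6 of every 10000 UMIs on WT, Early, Advanced 1 and Advanced 2.

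**Figure D1:**
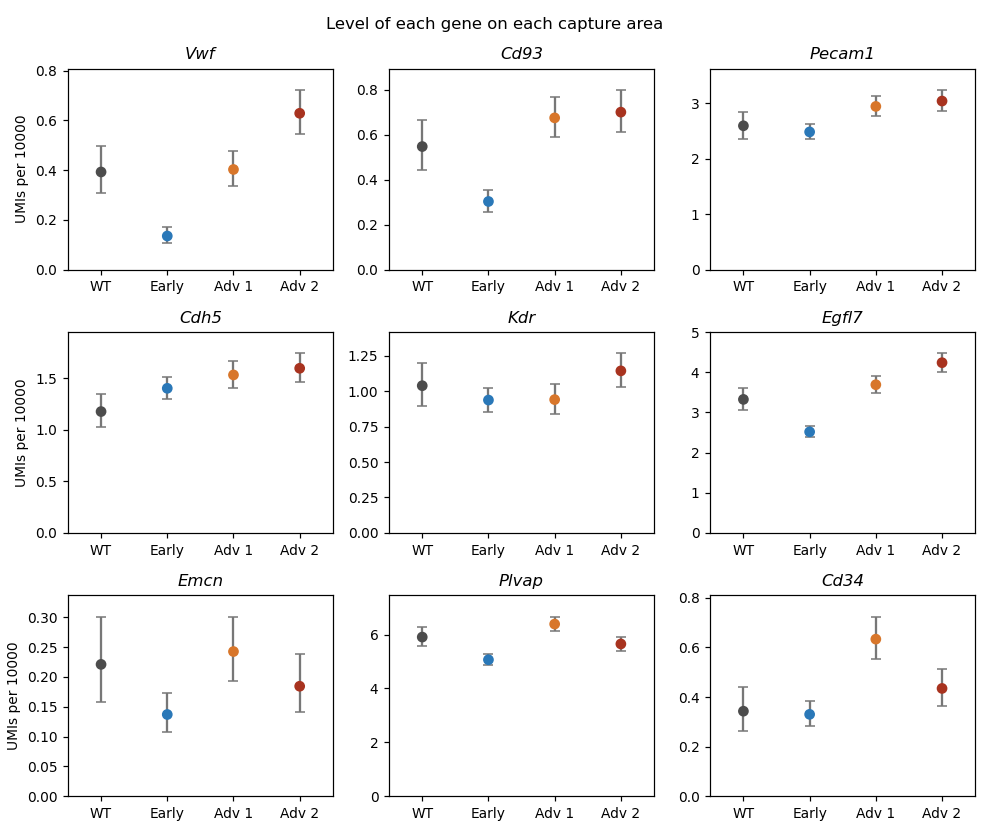
UMIs of each of the 9 genes per 10000 UMIs (linear vertical axis from 0) on the WT, Early, Advanced 1 and Advanced 2 capture areas. Points are the sums over all spots of an area and bars the exact Poisson 95% intervals, which cover counting error only. Vwf, Cd93, Egfl7 and Plvap are lowest on the Early area with intervals clear of the other 3 areas, and Cdh5 alone is lowest on WT.

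The comparison of Advanced with Early asks how the vessel genes differ between TNF-Tg nodes of the 2 groups, and holds stage of arthritis and age together. Both Advanced areas lay above the Early area for all 9 genes, where 43.4% of the 13102 genes tested did so. In edgeR's quasi-likelihood test on sums per area, with p-values adjusted after Benjamini and Hochberg over all genes, 1.16% of the genes (152) passed 0.05, with 65 higher (0.496%) and 87 lower (0.664%) in Advanced. Vwf and Cd93, 2 of the 9 genes, passed, both higher in Advanced. The median log2 difference of the 9 genes was 0.56, against 0.01 over all genes tested.

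By this edgeR test Vwf rose by 1.85 ± 0.28 (log2 difference ± standard error, adjusted p = 2.32e-08), from 0.135 on Early to a mean of 0.516 ± 0.160 (SD, n = 2 areas). Cd93 rose by 1.10 ± 0.23 (edgeR adjusted p = 0.000635), from 0.303 to 0.688 ± 0.0180. Egfl7 stood at 0.58 ± 0.18 (edgeR adjusted p = 0.0741) and Cd34 at 0.62 ± 0.24 (edgeR adjusted p = 0.296), neither past the threshold. Without immunoglobulin and haemoglobin genes Egfl7 passed at the same difference of 0.58 (edgeR adjusted p = 0.0440). Emcn stood at 0.56 ± 0.32, and the other 4 genes lay between 0.07 for Kdr and 0.19 for Pecam1. The fit had 1 residual degree of freedom, and DESeq2's Wald test on the same sums called 7 genes in all, among them neither Vwf (adjusted p = 0.265) nor Cd93. Over 9 tested alternatives the edgeR or DESeq2 adjusted p ran from 1.09e-10 to 1 for Vwf and from 0.000659 to 1 for Cd93.

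For Vwf the rim and the interior gave unlike values. In rim spots alone Vwf rose by 2.41 ± 0.39 (edgeR adjusted p = 0.0207), and in interior spots alone it stood at 0.53 ± 0.44 (edgeR adjusted p = 1). The difference between rim and interior was tested as an interaction, which Vwf did not pass, and is given with the position of the genes. For Cd93 rim and interior gave like values, 1.13 ± 0.26 and 1.06 ± 0.34, though neither passed on its own (edgeR adjusted p = 0.222 and 0.262). Kdr turned direction between the regions, with 0.33 in rim spots and -0.47 in interior spots.

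Vwf UMIs were gathered in few spots. On Advanced 2, 52 of 1782 spots held any Vwf UMI, and the 5 highest held 68.2% of them. These 5 spots held 41.9% on Advanced 1, 35.7% on Early and 31.0% on WT. For the other 8 genes the 5 highest spots of an area held between 6.07% (Pecam1 on Early) and 28.8% (Emcn on Advanced 2). Without its 5 highest spots on every area Vwf stood at 0.284 per 10000 on WT, 0.0886 on Early, 0.241 on Advanced 1 and 0.205 on Advanced 2. Advanced then exceeded Early by 1.25 ± 0.34 on the log2 scale (edgeR adjusted p = 0.0243). Cd93 without its own 5 highest spots stood at 1.13 ± 0.22 (edgeR adjusted p = 0.0339).

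**Figure D2:**
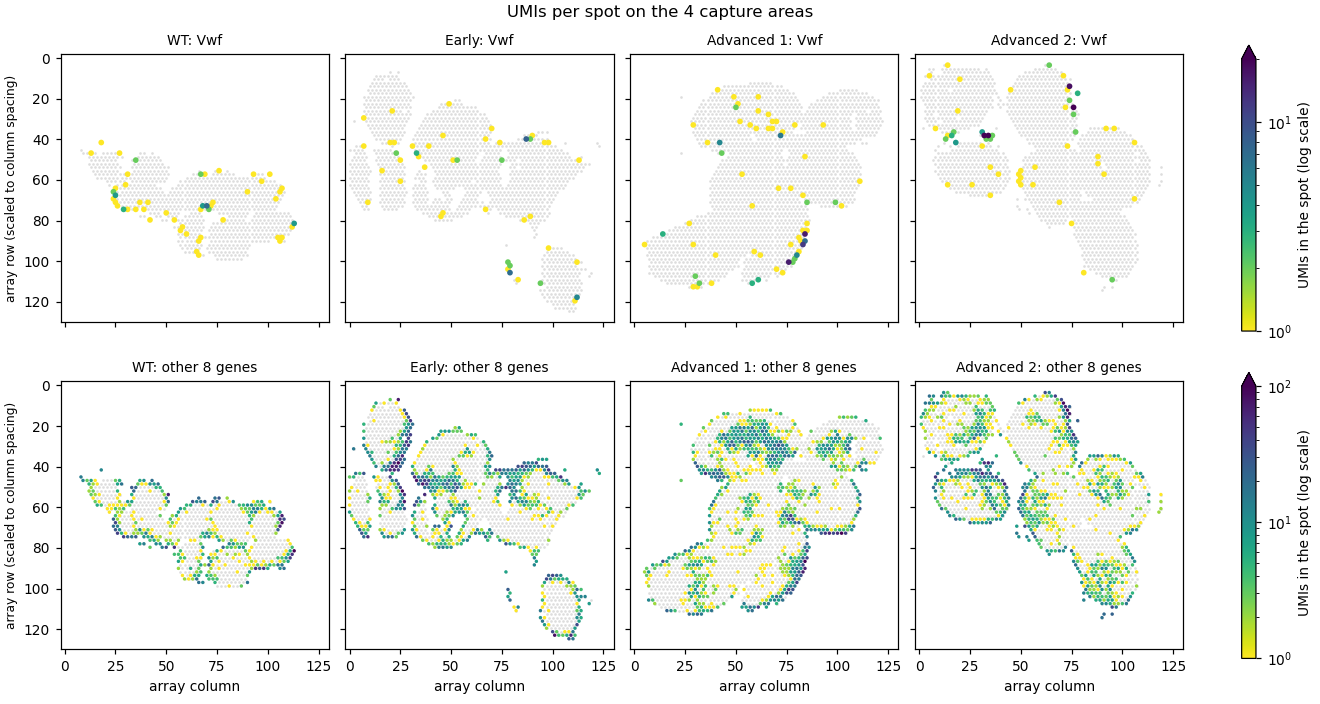
Position on the array of every spot under tissue (grey) and of spots with UMIs (coloured by UMIs in the spot, log scale) for Vwf in the upper row and for the other 8 genes summed in the lower row, on each capture area. Axes are array column and array row scaled to column spacing. Vwf sits in few spots, with the darkest along the edge of Advanced 2 and at or 1 step inside the edge of Advanced 1, while the other 8 genes cover 41.3% to 47.3% of the spots of an area.

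On Advanced 2 the 4 spots richest in Vwf held 41, 39, 35 and 18 of its UMIs, and the next spot 4. All 5 were rim spots, and the first and second touched each other. The first held 17943 UMIs in all, among them 52 of Acta2 and 11 of Myh11 (smooth muscle), 47 of Mgp (matrix Gla protein, a gene of the arterial wall and cartilage), 95 of Fabp4 (a fatty acid binding protein of capillaries and fat cells) and 18 of Pf4 (a platelet chemokine also made by some macrophages). The third spot held 5 UMIs of Acta2 but 240 UMIs of the 5 red cell genes, and the fourth 144 of Glycam1, the high endothelial venule mucin. The 4 spots thus differed in the company they kept.

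Over the 5 highest Vwf spots of Advanced 2, the 14 smooth muscle and pericyte genes took 41.9 per 10000, against 8.43 in the other spots of at least 1000 UMIs. The 12 adipocyte genes took 72.9 against 17.8 there, and the other 8 vessel genes 31.9 against 16.9. On Advanced 1 the 8 vessel genes took 31.1 in the 5 highest Vwf spots against 17.0 elsewhere, Glycam1 took 94.1 against 7.70, with 812 of its 995 UMIs in the first spot alone, and the adipocyte genes took 7.95 against 14.4. On Early and WT the 8 vessel genes took 19.2 and 25.2 in those spots against 13.2 and 15.0. Spots were chosen by their Vwf UMIs and carry no test.

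Platelets and megakaryocytes also hold Vwf. The 10 platelet and megakaryocyte genes took 1.91 to 2.25 per 10000 on the 4 areas, with 4 to 6 of the 10 at 0 UMIs on an area. Gp6, Treml1 and Tubb1 had 0 UMIs on all 4 areas, Gp9 had 1, Gp1bb 5, Ppbp 6 and Gp1ba 8, so nearly all of the list was Itga2b, Pf4 and Clec1b. In the 5 highest Vwf spots of Advanced 2 the list took 4.65 per 10000 against 2.21 in the other spots of at least 1000 UMIs, Pf4 took 3.18 against 0.186, and Selp, a selectin stored with von Willebrand factor in endothelium and also held by platelets, took 1.35 against 0.111. In those of Advanced 1 the list took 1.42 against 1.99. The part of platelets in the Vwf of Advanced 2 was not tested. The 12 adipocyte genes stood at 13.4 per 10000 on WT, 7.78 on Early, 13.2 on Advanced 1 and 18.1 on Advanced 2, lowest on Early and highest on Advanced 2 like Vwf. Of these genes 5 rose from Early to Advanced in edgeR and 0 fell, with a median log2 difference of 0.79, Cfd (1.11) and Car3 (1.14) among them. The 14 smooth muscle and pericyte genes stood at 8.64, 8.02, 9.80 and 9.16, with 0 of 13 tested passing in edgeR and 1 at an unadjusted p under 0.05. The part of fat or of large vessels in the section in the Vwf difference was not tested.

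The comparison of Advanced with WT holds genotype and age together. Both Advanced areas lay above WT for 6 of the 9 genes, all but Kdr, Emcn and Plvap, where 48.3% of all genes tested did so. Of 13102 genes 2.08% (272) passed in edgeR, 0.733% higher and 1.34% lower in Advanced, and 0 of the 9 vessel genes did. At an unadjusted p under 0.05 edgeR gave 1408 genes and 0 of the 9, and DESeq2 called 33 genes. Cd34 had the largest log2 difference of the 9, 0.53 ± 0.27 (edgeR adjusted p = 0.474), and the others lay between -0.16 for Emcn and 0.30 for Cdh5. Vwf stood at 0.28 ± 0.27 (edgeR adjusted p = 0.812), and its direction rested on Advanced 2 and on few spots. It was -0.09 without Advanced 2, -0.47 without the 5 highest spots of each area and -1.21 in interior spots alone.

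**Figure D3:**
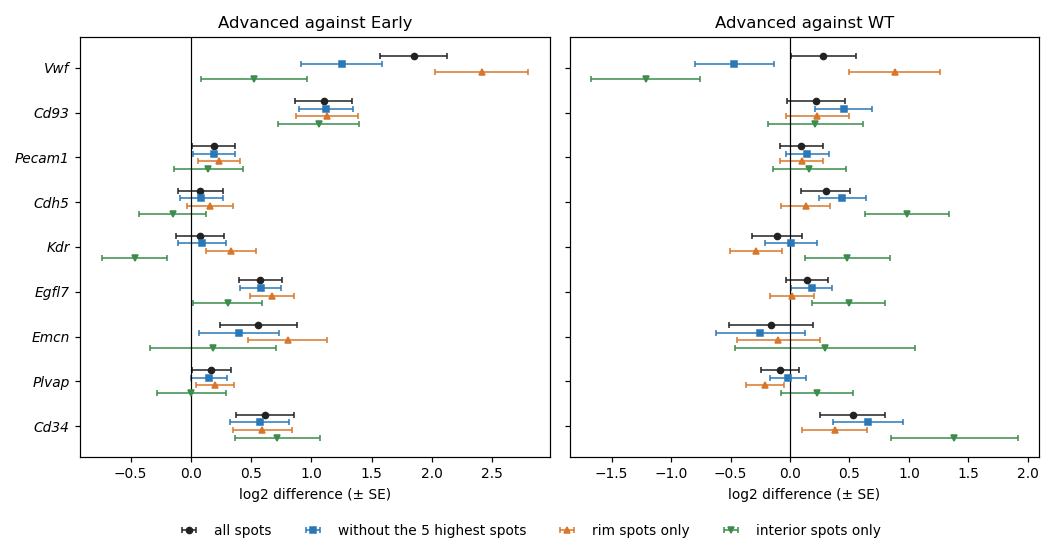
Log2 difference (horizontal axis) of each of the 9 genes between Advanced and Early (left) and between Advanced and WT (right) from edgeR, with the standard error as bars, over all spots, without the 5 highest spots of the gene on each area, in rim spots only and in interior spots only. Vwf moves from 1.85 to 2.41 and 0.53 against Early and crosses 0 against WT, while Cd93 stays between 1.06 and 1.13 against Early.

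Early and WT, of the same age, were each a lone area, so no test was made. The Early level over the WT level was 0.344 for Vwf (95% exact interval of the ratio 0.244 to 0.486), 0.554 for Cd93 (0.428 to 0.719), 0.620 for Emcn (0.415 to 0.937), 0.757 for Egfl7 (0.687 to 0.835) and 0.857 for Plvap (0.798 to 0.922). It was 1.19 for Cdh5 (1.02 to 1.39). These intervals cover counting error only and exclude 1, while those of Pecam1, Kdr and Cd34 held 1. Vwf and Cd93 were lower on Early in rim and in interior spots alike, with log2 ratios of -1.51 and -1.68 for Vwf and -0.87 and -0.79 for Cd93. Egfl7, Plvap and Emcn were lower on Early in rim spots (-0.63, -0.38 and -0.88) and higher on Early in interior spots (0.25, 0.29 and 0.17). In interior spots the Early and WT intervals overlapped for Egfl7, Plvap, Emcn (5 UMIs on WT) and Cd93. Those of Emcn also overlapped in rim spots. Kdr was lower on Early in rim spots (0.737 per 10000 against 1.11 on WT) and higher in interior spots (1.57 against 0.776). Its Early and WT intervals lay apart in both regions.

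Tissue pieces gave the spread within areas. The Early section fell into 4 connected pieces of at least 50 spots, the Advanced sections into 3 in all and the WT section into 1. Vwf lay between 0.0595 and 0.140 per 10000 on the Early pieces and between 0.403 and 1.28 on the Advanced pieces. The highest was a piece of 249 spots of Advanced 2 that held 100 Vwf UMIs, while the other piece of that area, of 1517 spots, stood at 0.420, close to Advanced 1. For 4 of the 9 genes, Vwf, Cd93, Egfl7 and Cd34, every Advanced piece lay above every Early piece, against 9.16% of all genes tested. Pieces can hold several nodes, share a library and carry no mouse label, so they are not replicates.

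Rim against interior asks how the vessel genes lie relative to the edge of the tissue under the spots. This edge, which includes gaps in the tissue, is not the edge of a node. On WT, with 10 PLNs, 828 of 833 spots formed 1 connected piece, and on Advanced 1, with 6 PLNs, 2013 of 2015. Node borders that touch can thus count as interior. Rim spots held many times more UMIs than interior spots on every area, with medians of 2113 to 5541 against 140.5 to 250.5, and whether this comes from the tissue or from how RNA was captured and spots were assigned to tissue was not tested, so every value by position carries that doubt. With the area as a block, 8.04% of 10998 genes (884) passed in edgeR, 4.29% higher and 3.75% lower at the rim, and 0 of the 9 did, Vwf being the only one of them at an unadjusted p under 0.05. DESeq2 called 421 genes and 0 of the 9. Vwf differed between areas more than any other member: rim over interior was 0.348 against 0.562 per 10000 on WT, 0.122 against 0.175 on Early, 0.445 against 0.364 on Advanced 1 and 0.906 against 0.123 on Advanced 2. The Advanced 2 rim was 7.34 times its interior, and the other areas lay between 0.620 and 1.22 times. Its fitted log2 difference of 0.73 ± 0.33 (edgeR adjusted p = 0.205) became -0.09 without Advanced 2 and 0.25 without the 5 highest spots. It passed when spots 1 step inside were counted with the rim (1.32, adjusted p = 0.00422 in edgeR), without WT (1.02, adjusted p = 0.0158) and with no filter on low counts (adjusted p = 0.00305).

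By steps from the edge, Vwf peaked 1 step in on WT (0.665 per 10000), Early (0.207) and Advanced 1 (0.641), and at the edge itself on Advanced 2 (0.906), where it stood at 0.0870 in spots 3 or more steps in. These peaks hold 17, 15, 27 and 187 UMIs, and on the first 3 areas their intervals overlapped those at the edge. Kdr, the VEGF receptor, showed an inward slope on Early, from 0.737 at the edge to 1.75 at 3 or more steps, and was 1.11 in rim against 0.776 in interior spots of WT. Its fitted rim difference was -0.31 ± 0.16 (edgeR adjusted p = 0.256), and without WT it was -0.47 and passed (edgeR adjusted p = 0.0149). Cd34 and Emcn were higher at the rim on 3 of 4 areas, with fitted differences of 0.28 and 0.46 and adjusted p of 0.423 and 0.269 in edgeR. Plvap, Cdh5, Pecam1, Cd93 and Egfl7 had fitted differences between -0.13 and 0.11.

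Summed without Vwf, the other 8 genes took 15.8 per 10000 at the rim against 12.8 inside on WT, 12.2 against 16.3 on Early, 15.4 against 18.5 on Advanced 1 and 17.2 against 16.6 on Advanced 2. The rim also held other tissues: 9 of 11 tested adipocyte genes were higher there (median log2 difference 1.74) and 4 of 5 red cell genes (1.73), whose part in the vessel values was not tested. Whether the rim minus interior difference itself changed between Early and Advanced was tested as an interaction, which 0.0408% of 12254 genes (5) passed in edgeR, 0.00816% upward and 0.0326% downward, and 0 of the 9 genes. Vwf had an interaction of 1.79 ± 0.49 (edgeR adjusted p = 0.212, unadjusted p = 0.000276) and Kdr one of 0.79 ± 0.26 (edgeR adjusted p = 0.646, unadjusted p = 0.00232), the only members at an unadjusted p under 0.05.

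**Figure D4:**
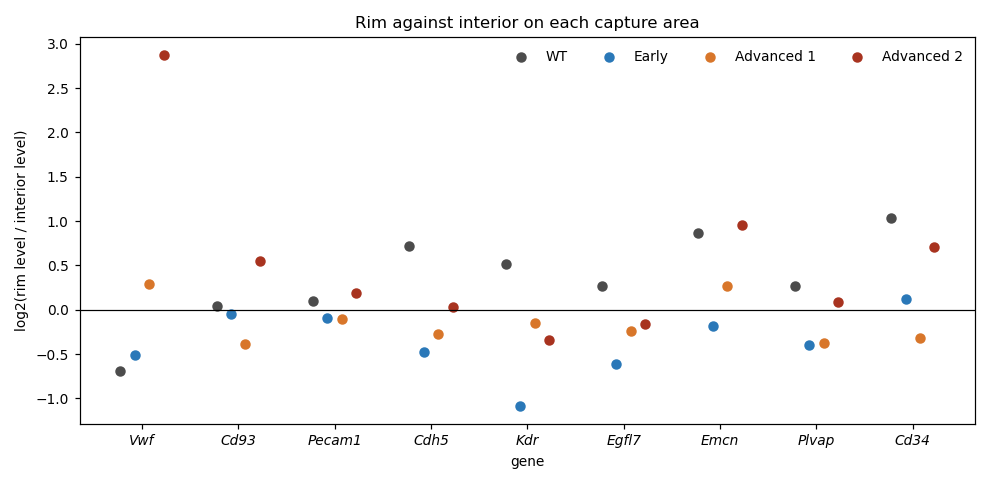
Log2 of the level in rim spots over the level in interior spots (vertical axis) for each of the 9 genes, with a point for each capture area and no error bars. Vwf on Advanced 2 stands at 2.88, apart from all other points, which lie between -1.09 (Kdr on Early) and 1.03 (Cd34 on WT).

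Co-occurrence was read in the 273 to 604 spots of an area with at least 1000 UMIs, each thinned to 1000 UMIs so that depth did not set the chance of seeing a gene. The share of spots with both genes of a pair was divided by the product of the single shares. Over the 36 pairs the median of this ratio was 1.13 ± 0.0356 (SD, n = 4 areas), and the mean over areas was above 1 for 32 pairs. Thinned to 500 UMIs the median was 1.13 and 27 pairs were above 1. The ratio was not computed for pairs of other genes, so these values have no background. The median of the 8 pairs with Vwf was 1.40 ± 0.176 and that of the 28 others 1.10 ± 0.0415. After thinning Vwf was seen in 1.29% (Early) to 4.19% (WT) of these spots, and Plvap in 35.0% (Early) to 45.0% (Advanced 1).

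The highest ratios were those of Vwf with Emcn (2.54 ± 0.747) and with Cd34 (2.22 ± 1.47), each above 1 on 4 of 4 areas. After thinning these pairs rest on very few spots, an expected 0.330 to 0.948 spots of an area with Vwf and Emcn and 0.708 to 1.17 with Vwf and Cd34, so their ratios are imprecise. Before thinning 8 to 16 and 17 to 29 spots of an area held both. Kdr with Plvap was the steadiest pair above 1.2, at 1.29 ± 0.0541, and Cdh5 with Kdr stood at 1.34 ± 0.222, both above 1 on 4 of 4 areas. Vwf with Cd93 had a mean of 1.07 but was above 1 on 1 of 4 areas. Cd93 was seen with Kdr (0.810 ± 0.273), Pecam1 (0.901 ± 0.0780) and Cdh5 (0.978 ± 0.158) at or under the independent share, on 3 of 4 areas each. The median correlation of log2 levels over the 36 pairs was weak, 0.0756 ± 0.00972, in spots that share a library and hold few UMIs of most of these genes.

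**Figure D5:**
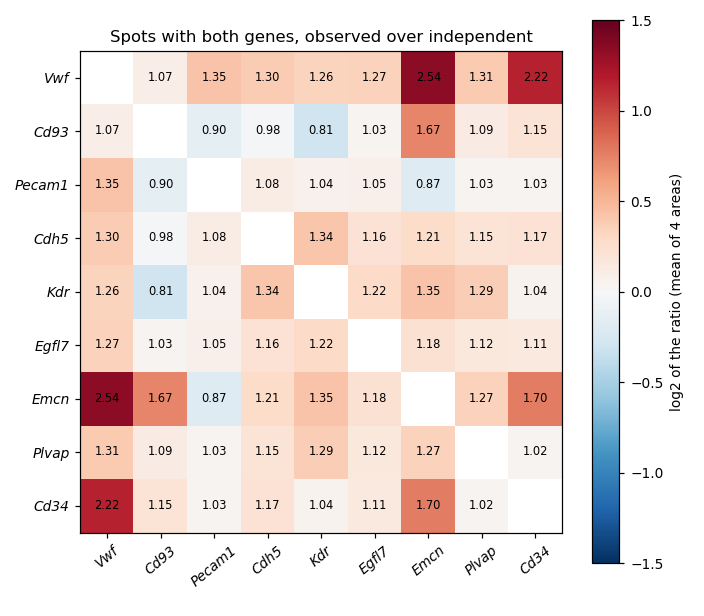
Share of spots with both genes over the share expected if they were independent, for each pair of the 9 genes after thinning to 1000 UMIs, as the mean of the 4 areas (numbers) and its log2 (colour). The means of the Vwf row are all above 1, highest with Emcn and Cd34 (from about 1 spot or fewer per area) and lowest with Cd93 (above 1 on 1 of 4 areas), and Cd93 with Kdr is the lowest pair at 0.81.

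Spot levels most like those of Vwf were those of Mgp and of smooth muscle genes, with haemoglobin genes and Fabp4 next in rank. Among 3174 genes with at least 100 UMIs in these spots on every area, the highest mean correlations with Vwf were those of Mgp (0.249), Myl9 (0.240), Acta2 (0.207), Tagln (0.187) and Hbb-bs (0.169, but 0.105 without Advanced 2). Myl9, Acta2 and Tagln encode contractile proteins of smooth muscle and Hbb-bs a haemoglobin chain. The summed other 8 genes most resembled Apoe (0.371), Marco (0.370), Selenop (0.360), Cd209b (0.350) and Ccl8 (0.326). Marco and Cd209b are scavenger and lectin receptors of lymph node macrophages, and Marco is also made by lymphatic endothelium. All are modest correlations over spots of 4 libraries and are given as a description.

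The gene lists were set against the same spots. The 8 genes correlated at 0.376 with the macrophage list, 0.326 with 28 other blood endothelial genes, 0.299 with the venous, 0.291 with the arterial and 0.279 with the lymphatic list, and at -0.211 with the B cell list. Lists were summed, so their most abundant genes weigh most. On WT Cxcl12 took 14.2 of the 16.3 per 10000 of the arterial list and Ccl21a 12.2 of the 21.4 of the lymphatic list. Vcam1 (5.76) and Bgn (3.27) took most of the 11.8 of the venous list. The macrophage list had the higher correlation on 3 areas (0.519 against 0.411 on Early, 0.335 against 0.255 on Advanced 1, 0.303 against 0.237 on Advanced 2), and the other blood endothelial list on WT (0.403 against 0.348). Marco, also made by lymphatic endothelium, took 30.4 of the 54.0 per 10000 of the macrophage list on WT and 22.9 of 38.9 on Early. The other blood endothelial list took 16.4 and 12.4 there, and fewer UMIs bring more counting noise. These correlations therefore do not rank the likeness of the 8 genes to cell types. Spot levels did not set the 8 genes apart from the macrophage list, and the label blood endothelial rests on what they are known for. The part of macrophages and lymphatic endothelium in their UMIs was not tested. Vwf correlated at 0.154 with the red cell, 0.145 with the adipocyte, 0.142 with the smooth muscle and 0.109 with the other blood endothelial list, and at 0.00849 with the macrophage list. The red cell value rests on Advanced 2 (0.332), and without that area it was 0.0947, below smooth muscle (0.132), adipocyte (0.112) and other blood endothelial genes (0.109).

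Other genes of the endothelium, from fixed lists, are given by their counts. Of 28 other blood endothelial genes 0 passed between Advanced and Early in edgeR, 8 were at an unadjusted p under 0.05, and the median log2 difference was 0.36 against 0.01 over all genes, and their sum stood at 16.4 per 10000 on WT, 12.4 on Early, 14.7 on Advanced 1 and 15.2 on Advanced 2. Against WT 1 of the 28 passed, the tight junction gene Cldn5, which fell by 1.17 on the log2 scale (adjusted p = 1.49e-08 in edgeR). Of 15 tested VEGF and angiopoietin genes 0 passed against Early in edgeR (4 at an unadjusted p under 0.05), with a median of 0.35 and Vegfa at 0.56, and against WT Flt4 fell by 0.70 and Angptl4 by 0.82. Of 12 tested genes of platelet adhesion and endothelial haemostasis 0 rose and 2 fell against WT in edgeR, with a median log2 difference of -0.48, and these 2 were the anticoagulant receptors Thbd and Procr, by 1.61 and 1.58.

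Genes of endothelial activation and leukocyte adhesion had 0 higher and 1 lower against Early, Lrg1 (-0.59, edgeR adjusted p = 0.0492), and 2 lower against WT, Lrg1 (-1.46) and Vcam1 (-0.99). Of 8 tested high endothelial venule genes 1 fell against Early, Madcam1 (-0.89), and Glycam1, with the most UMIs of the list, rose against WT by 1.38 and stood at -0.36 against Early. Of 11 tested arterial genes 1 rose against Early, Cxcl12 (0.77), and 1 fell, Gja4 (-1.12), and of 7 venous genes 0 passed, also at an unadjusted p under 0.05. Of 8 capillary genes Fabp4 (0.90) and Lpl (0.74) rose against Early, both of them also on the adipocyte list. Of 13 endothelial transcription factors, the ETS factors Ets1 and Fli1 among them, 0 passed in edgeR in these comparisons, and at an unadjusted p under 0.05 there were 0 against Early and 1 against WT.

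Lymphatic endothelial genes, a possible second source of several of the 9, had 4 of 14 higher and 1 lower in Advanced than Early, Ccl21a with a log2 difference of 1.13 among the former. Their sum stood at 21.4 per 10000 on WT, 10.6 on Early, 15.4 on Advanced 1 and 17.6 on Advanced 2, lowest on Early like that of the 9 genes. Ccl21a alone took 12.2, 4.20, 9.63 and 9.83 of these sums, so their order rests largely on that gene. The other genes were mixed. Flt4 (0.712) and Mmrn1 (0.351) were lowest on Early, Lyve1 was lowest on Advanced 1 (1.15), and Prox1 (0.255) and Madcam1 (0.901) were highest on Early. The 8 plasma cell genes took 24.1, 13.6, 16.3 and 20.1 in the same order of areas. Of these 0 passed against Early in edgeR (3 at an unadjusted p under 0.05) and 1 fell against WT. The part of plasma cells in the Cd93 difference was not tested. The 10 macrophage genes took 54.0, 38.9, 28.3 and 37.3, with 0 of 9 tested passing against Early in edgeR (5 at an unadjusted p under 0.05) and 6 falling against WT. Over spots of at least 1000 UMIs Plvap correlated at 0.398 with the macrophage list, whose largest part was Marco, and at 0.283 with the other blood endothelial list. The part of macrophages in the Plvap level was not tested.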

How the data were processed

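Spatial transcriptomics of mouse PLNs was measured on 4 capture areas. UMIs had been counted by the authors with Space Ranger 1.1.0 against mm10 (GRCm38), per the submitters' processing notes, and the deposited counts under tissue, raw and without normalization, were used here. Counts were summed over all spots of an area, or over its rim and interior spots, and tested with edgeR 4.0.16 in R 4.3.3 (TMM, filterByExpr, quasi-likelihood test, Benjamini-Hochberg). DESeq2 1.42.0 was an alternative. The group fit used WT, Early and Advanced and had 1 residual degree of freedom. The position fit had the area as a block. Fits were tested on simulated counts. Depth was 1808678 to 5180493 UMIs per area. Co-occurrence used spots of at least 1000 UMIs and log2(UMIs per 10000 + 1). Barcodes shared between areas mark array positions, not cells.

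The 9 genes and the 19 gene lists were chosen with earlier results of these data known. Named were the 9 genes in every comparison, of each list at most 4 genes with most UMIs, and the 5 genes nearest to Vwf and to the other 8. Other genes that are named for passing a test, for their UMIs in the highest Vwf spots or for being at or near 0 UMIs in the platelet list were chosen after their values were seen. Alternatives were another scaling, tool, filter, choice of spots, rim width and areas left out. For Early against WT, and for correlations without Advanced 2, they were chosen after seeing the data. Gene positions were those of GENCODE M21. The comparison of the platelet adhesion and haemostasis list with Early is not reported here.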

Additional observations from a re-analysis of the deposited data

Results flagged for a closer look

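The log2 ratio of rim over interior had opposite signs on the WT area and on the Early area for 7 genes, each higher at the rim on WT and higher inside on Early. Early minus WT was -0.18 for Pecam1, -1.20 for Cdh5, -1.60 for Kdr, -1.05 for Emcn, -0.67 for Plvap, -0.083 for Cd93 and -0.87 for Egfl7. With 1 area in each group these differences were not tested. The share of all genes with opposite signs was not computed, so the count of 7 has no background. The rim and interior intervals of all 7 overlapped on WT, and on Early those of Cdh5, Kdr, Plvap and Egfl7 did not.

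The same ratio had opposite signs on WT and on both Advanced areas for 3 genes, and Advanced minus WT was 2.27 for Vwf, -0.76 for Kdr and -0.47 for Egfl7. This was not tested either, and the share of all genes was not computed. For Vwf the Advanced areas stood at 0.29 and 2.88, and 137 of the 187 rim UMIs of Advanced 2 lay in 5 spots.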

How the results depend on the processing

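Of 369 values of the 9 genes recomputed under alternatives, 318 were counted as unchanged and 24 as reversed in direction. A further 5 lost and 5 gained a call, and 17 moved without a test. Where a test was made, unchanged means the same direction and side of the threshold. Only Vwf and Cd93 between Advanced and Early were called in the main fits, so most unchanged values are results without a call that stayed so. The 5 lost calls were those of Vwf and Cd93. Vwf kept its call in 7 of 9 tested alternatives and Cd93 in 6 of 9. Early against WT, and Advanced comparisons without an Advanced area, had no test and so no threshold. The sign changes of Kdr, Cd34 and Pecam1 for Early against WT, given below, were not counted among the 24. They stand among the unchanged or moved values.

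Rim against interior called 884 genes, and 441 in spots of at least 1000 UMIs, 421 with DESeq2, 478 with a wider rim and 279 to 1136 without an area. The vessel genes called were 0, then 1 without a filter, 1 with a wider rim and 0 to 2 without an area. Advanced against Early called 152 genes, and 91 in deep spots, 7 with DESeq2, 18 in rim and 36 in interior spots, with 2 vessel genes called, 0 with DESeq2, 1 in rim and 0 in interior spots. Advanced against WT called 272 genes, and 33 with DESeq2, 126 in rim and 40 in interior spots. The interaction called 5, and 0 with DESeq2 size factors. The median correlation of pairs, 0.0756, was 0.114 as Spearman's rho and 0.101 in rim spots.

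Direction changed for rim against interior. Over the areas left out in turn, Egfl7 ran from -0.252 (without WT) to 0.00124 (without Early), Cd93 from -0.0916 (without Advanced 2) to 0.323 (without Advanced 1), Vwf from -0.0868 (without Advanced 2) to 1.02 (without WT), Plvap from -0.148 (without WT) to 0.0539 (without Advanced 1, and 0.0516 without Early) and Cdh5 from -0.162 (without WT) to 0.119 (without Early, and 0.0411 without Advanced 1). Cdh5 stood at 0.0152 with DESeq2 and Emcn at -0.0691 without its 5 highest spots. For Advanced against Early it changed in Kdr (-0.467 in interior spots, -0.0867 without Advanced 2, 0.220 without Advanced 1) and Cdh5 (-0.151 in interior spots). For Advanced against WT it changed in Emcn (0.296 in interior spots, 0.00795 without Advanced 2, -0.362 without Advanced 1), Kdr (0.00831 without its 5 highest spots, 0.483 in interior spots, 0.0381 without Advanced 1, -0.269 without Advanced 2), Vwf (-0.468 without its 5 highest spots, -1.21 in interior spots, -0.0899 without Advanced 2, 0.578 without Advanced 1) and Plvap (0.228 in interior spots). For Early against WT it changed in interior spots for Emcn (0.174), Plvap (0.286) and Egfl7 (0.248), where the Early and WT intervals of each gene overlapped. It also changed there for the 3 genes whose ratio interval held 1. In interior spots Early stood above WT for Kdr (1.57 per 10000 against 0.776), Cd34 (0.310 against 0.187) and Pecam1 (2.60 against 2.46). Without its 5 highest spots Cd34 also stood higher on Early (0.306 against 0.281). The cause was not tested.

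Without an Advanced area no residual degree of freedom remained, and the log2 difference between Advanced and Early was 1.48 to 2.15 for Vwf and 1.06 to 1.14 for Cd93, as values with no test. No paired analysis was possible because WT and Early had 1 area each. Interior spots held few UMIs, which limits Vwf and Emcn there to 5 to 64 UMIs per area.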

Other observations

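The features also list the reporters Tdtomato and EGFP, which had 0 UMIs on the 4 areas.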
